A study of Mus musculus with 67 samples.

Results

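The genes described here are 41 lysosomal genes, a set of enzymes that digest macromolecules in the lysosome together with proteins of its membrane, their cofactors and a transcriptional regulator. They were picked by symbol for their known function, and the rule uses no measured value, but the set was chosen with earlier results of these data known. All 41 were found among the 24411 or 24421 genes of each of the 3 count tables, and all 41 passed the filter on low counts in each. RNA was sequenced in 67 libraries from brains of C57BL/6J mice in 3 experiments. Every mouse carried the RiboTag alleles labelled RLP22HA/HA and a Cre recombinase at Cx3cr1 with a wild-type copy beside it, so that cells that had used Cre carried an HA tag on the ribosomal protein Rpl22. Cx3cr1 is active in microglia and in other macrophages and monocytes. An anti-HA antibody then captured the tagged ribosomes with bound RNA from frozen brain homogenate, an IgG1 antibody gave the background, and the total extract before the pull-down is called input.

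The driver experiment held pull-down, IgG1 and input libraries of 3 kinds of mice. These were CX3CR1CreER/WT mice given tamoxifen (3 mice), CX3CR1CreER/WT mice without tamoxifen (2 mice) and CX3CR1Cre/WT mice, whose Cre needs no tamoxifen and which received none (3 mice). All mice of the other experiments were CX3CR1CreER/WT and received tamoxifen. It was given as 4 doses of 5 mg by gavage at 4 to 6 weeks of age. Age at tissue collection is not given in the sources used here. The digest experiment held pull-down (3 libraries), IgG1 (4), cells sorted after a collagenase digest (4) and cells sorted without that digest (4). For the LPS experiment, 4 mice were injected intraperitoneally with lipopolysaccharide, a bacterial cell wall product, at 2.5 mg/kg and 3 mice with PBS, and tissue was taken 3 h later. Each treatment had pull-down, IgG1, sorted cells and a pull-down made from sorted cells. Sorting kept CD11b positive, GR1 negative cells with intermediate CD45. Replicates were individual mice per the series design text.

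Lysosomes are acidic organelles in which glycosidases, sulfatases, lipases, proteases and nucleases break down material taken up by endocytosis, phagocytosis or autophagy. Many of these enzymes are made in the endoplasmic reticulum, carry a mannose 6-phosphate tag to the lysosome and need small cofactor proteins to reach lipid substrates, while membrane proteins such as LAMP1 and LAMP2 line the organelle and transporters let its products out. Microglia, the resident macrophages of the brain, clear dead cells and myelin through this organelle, and inherited loss of many of these genes causes a lysosomal storage disease with damage to the brain. TFEB is a transcription factor that binds a short E-box element near the start of many lysosomal genes.

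A window from 250 bases before to 50 bases after the annotated start was at hand for 38 of the 41 genes (RefSeq, build GRCm38.p6), and the E-box core CACGTG, which reads the same on both strands, stood in the windows of 9 of the 38 (23.7%). Among all 27025 genes with such a window 8.09% held it. The longer TCACGTGA, which contains the core, stood in those of Gla and Mcoln1 (1.12% of all genes). GAGGAAGT, a site of the macrophage factor PU.1, searched on both strands, stood in those of Gla, Gusb and Pld4 (3.69% of all genes). The 100 bases before the start are printed 5′ to 3′ on the strand of the gene, with each CACGTG or TCACGTGA in capitals, for Sgsh, Naglu and Arsa, which hold the core and whose RNA was lower after LPS in pull-down, sorted cells and pull-down from sorted cells, and for 2 membrane proteins that carry the core more than once.
Sgsh (chr11:119355511-119355610, minus strand): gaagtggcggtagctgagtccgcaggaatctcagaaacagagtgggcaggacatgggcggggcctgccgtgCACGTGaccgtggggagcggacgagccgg
Naglu (chr11:101069994-101070093, plus strand): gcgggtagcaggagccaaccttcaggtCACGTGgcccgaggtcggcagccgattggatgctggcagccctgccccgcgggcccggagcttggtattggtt
Arsa (chr15:89477425-89477524, minus strand): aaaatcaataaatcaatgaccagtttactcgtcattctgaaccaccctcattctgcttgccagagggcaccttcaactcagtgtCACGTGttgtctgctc
Lamp1 (chr8:13159061-13159160, plus strand): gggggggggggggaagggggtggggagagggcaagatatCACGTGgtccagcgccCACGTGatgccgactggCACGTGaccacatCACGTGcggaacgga
Mcoln1 (chr8:3500419-3500518, plus strand): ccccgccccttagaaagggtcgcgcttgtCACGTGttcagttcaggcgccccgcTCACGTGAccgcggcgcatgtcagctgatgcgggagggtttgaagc
The core began 29 bases before the start of Sgsh, 73 before that of Naglu and 16 before that of Arsa. Lamp1 held 4 cores in the stretch shown and Mcoln1 held 2.

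Libraries held 166851 to 3513317 counts, and pull-downs without tamoxifen were shallow (186099 to 219521). The labels name microglia as the cell type of every library. A list of 12 microglial markers summed to 56273 to 72915 CPM, the counts scaled to a common library size, in the tamoxifen pull-downs against 788 to 864 in their inputs. With CX3CR1Cre the same list reached only 2302 to 5456 in pull-down. The first of those 3 libraries stood apart, with the lowest microglial sum and with 1741 to 5709 CPM as the range of 7 oligodendrocyte markers, of which it held the highest value. Results of CX3CR1Cre pull-downs are therefore also given without it.

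In mice with CX3CR1CreER and tamoxifen, most lysosomal RNAs were strongly enriched by the pull-down. Together the 41 genes took 3.02% ± 0.156 (SD, n = 3) of all counts in pull-down, 0.449% ± 0.0225 in input and 0.339% ± 0.00467 in IgG1. By edgeR's quasi-likelihood test, 34 genes exceeded their input level and 1 lay below it, where 28.7% of all tested genes were higher and 35.5% lower. The median log2 difference of the 41 was 2.28, against -0.28 over all tested genes. Against IgG1, which shares the same pull-down libraries, 36 were higher and 1 lower, with 30.8% and 35.3% of all genes. Border macrophage markers summed to 814 to 1008 CPM in these pull-downs and 15.6 to 20.1 in input, and their part in the enrichment was not tested. In these bulk libraries more tagged cells and more RNA per cell cannot be told apart.

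Of the 10 membrane proteins and transporters, 8 were higher. Laptm5, a lysosomal membrane protein of blood and immune cells, stood at 9430.3, 9835 and 10977 CPM in the 3 pull-downs, 88.3, 122 and 219 in input and 66.2, 67.2 and 73.6 in IgG1. Every pull-down lay far above every control library, and the log2 difference from input was 6.12 ± 0.42 (adjusted p = 4.74e-11). Cd68, a macrophage relative of the LAMP proteins, had 882, 1174 and 1220.0 CPM in pull-down and 11.2, 22.4 and 25.9 in input, a log2 difference of 5.83 ± 0.30. Lamp1, a main structural protein of the lysosomal membrane, rose from 392, 607 and 687 to 3659, 3797 and 4889 CPM (2.87 ± 0.22). Its input values were spread, yet the groups did not overlap. Cd63, a tetraspanin of late endosomes, had 91.5, 111 and 143 CPM in input and 523, 550.0 and 587 in pull-down (2.27 ± 0.25). The cystine transporter Ctns had 5.80, 10.4 and 17.5 against 80.9, 85.9 and 109 CPM (3.07 ± 0.35). For the calcium channel Mcoln1 the values were 76.7, 79.0 and 114 and 111, 119 and 155 CPM, and its difference of 0.52 ± 0.23 was the smallest among the genes called higher, with 1 input library inside the range of the pull-downs. The cholesterol transporter Npc1 (1.62 ± 0.27) and Scarb2, the receptor that carries glucocerebrosidase to the lysosome (2.28 ± 0.17), lay between these.

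Among soluble proteins the differences ranged as widely. Pld4, an exonuclease of the lysosome in immune cells, had the largest difference of the 41, with 1161, 1246 and 1393 CPM in pull-down, 8.03, 12.7 and 14.0 in input and a log2 difference of 6.81 ± 0.30, which is 112-fold. Its relative Pld3, which brain cells of other kinds also express, had 772, 798 and 839.9 CPM in pull-down and 341, 492 and 625 in input, a difference of only 0.73 ± 0.20. Progranulin (Grn), a secreted and lysosomal protein whose loss causes dementia, stood at 3132, 4902 and 5036 against 63.8, 75.3 and 98.1 CPM (5.79 ± 0.28). Among 12 glycosidases 9 were higher, led by the α-mannosidase Man2b1 (5.52 ± 0.26) and by Hexa, a subunit of β-hexosaminidase. Hexa had 1892, 2203 and 2661 CPM in pull-down and 54.9, 69.3 and 100.2 in input (4.92 ± 0.26). The glucuronidase Gusb (4.43 ± 0.29) and Naglu, an enzyme of heparan sulfate breakdown (4.19 ± 0.24), followed. Idua (2.82 ± 0.31), Manba (2.31 ± 0.48), Glb1 (1.85 ± 0.21), Fuca1 (2.09 ± 0.21) and Neu1 (0.77 ± 0.18) were the others called. Gaa, Gla and Galc were not called (0.13 ± 0.17, -0.45 ± 0.34 and 0.20 ± 0.27). Against IgG1, Galc was higher and Gaa and Gla were not called.

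The asparaginyl protease legumain (Lgmn) had 3724, 4202 and 4327 CPM in pull-down and 182, 192 and 229 in input (4.35 ± 0.24), and the tripeptidase Tpp1 differed less (1.19 ± 0.23). All 3 lipid-binding cofactors were higher. For Npc2, which hands cholesterol to NPC1, the values were 3423, 3810.4 and 3975 CPM in pull-down and 207, 277 and 282 in input (3.87 ± 0.20). Prosaposin (Psap), the precursor of the saposins, had 764, 909 and 939 against 123, 151 and 178 CPM (2.52 ± 0.22). Its IgG1 libraries held 272, 323 and 333 CPM, above every input, and the difference from IgG1 was 1.49 ± 0.21. The third cofactor, Gm2a, differed from input by 3.46 ± 0.24. Lipases and lipid hydrolases ranged widely, from the phospholipase Pla2g15 (4.88 ± 0.22) through the ceramidase Asah1 (2.51 ± 0.23) to the acid lipase Lipa (0.89 ± 0.30) and the thioesterase Ppt1 (0.77 ± 0.19). The sphingomyelinase Smpd1 was not called against input (-0.20 ± 0.19) but was higher than in IgG1. Tfeb itself was higher, with 59.5, 79.4 and 86.0 CPM in pull-down against 4.91, 6.71 and 9.81 in input (3.43 ± 0.33) but with 16.5, 24.2 and 28.1 in IgG1 (1.73 ± 0.29).

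**Figure D1:**
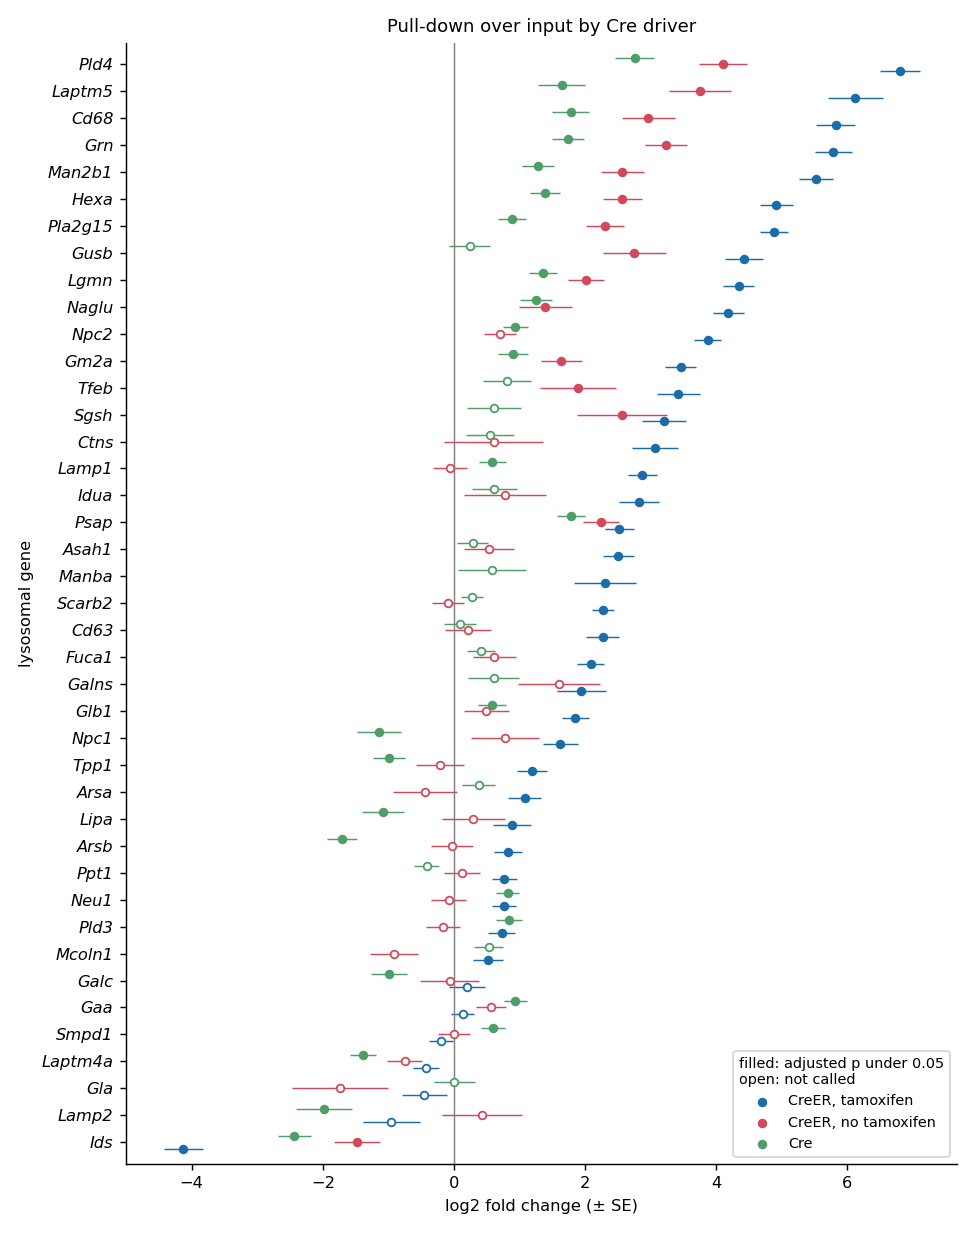
Log2 fold change of pull-down over input (x axis, ± SE) for the 41 lysosomal genes (y axis, ordered by the tamoxifen group) in CX3CR1CreER mice with and without tamoxifen and in CX3CR1Cre mice, filled where called. Blue points run from -4.13 for Ids to 6.81 for Pld4, and green points lie closer to 0 for most genes. Manba has no point without tamoxifen because no read was counted there.

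Ids, the iduronate sulfatase, went the other way. It had 10.9, 16.7 and 22.3 CPM in pull-down, 202, 229 and 422 in input and 136, 157 and 163 in IgG1, so that every pull-down lay below every control library (-4.13 ± 0.30 against input). The other 4 sulfatases were higher than in input: Sgsh by 3.20 ± 0.34, Galns by 1.94 ± 0.37, Arsa by 1.08 ± 0.26 and Arsb by 0.83 ± 0.21. Against IgG1, Sgsh, Galns and Arsb were higher and Arsa was not called. Lamp2, the partner of LAMP1 in the membrane, was not called either way, with 4.46, 6.52 and 18 CPM in pull-down, 15.6, 18.6 and 23.1 in input and 6.76, 9.69 and 10.0 in IgG1. Laptm4a, the broadly expressed relative of Laptm5, had 146, 190.1 and 262 CPM in pull-down and 222, 278 and 303 in input (-0.43 ± 0.20, not called) but was higher than in IgG1 (0.51 ± 0.20). With scaling by total counts instead of trimmed means, 28 genes were higher and 5 lower than in input, the median of all tested genes moved by -0.46, and the difference of Laptm4a from IgG1 turned to -0.027.

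Without tamoxifen, pull-down from CX3CR1CreER mice still held more RNA of several lysosomal genes than input. The 41 genes took 0.991% ± 0.0854 (SD, n = 2) of counts there and 0.497% ± 0.00706 in input. Of the 41, 14 were higher and 1, again Ids (-1.48 ± 0.35), was lower, where 6.44% of all genes were higher and 4.46% lower. Pld4 had 164 and 319 CPM in pull-down and 13.6 and 14.6 in input (4.11 ± 0.37). Laptm5 followed with 1474 and 1775 CPM against 104 and 136 (3.76 ± 0.47), and Grn with 827 and 952 against 92.3 and 96.3 (3.24 ± 0.31). The smallest differences called were those of Naglu (1.40 ± 0.40) and Gm2a (1.64 ± 0.31). Lamp1 was near its input, at 749 and 750.0 against 736 and 824 CPM (-0.057 ± 0.26, not called).

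Set directly against pull-downs with tamoxifen, those without it were lower for 29 of the 41 genes and higher for 1, where 18.3% of all genes were lower and 16.4% higher. Npc2 stood at 405 and 478 against 3423, 3810.4 and 3975 CPM (-3.08 ± 0.24), and Cd68 at 118 and 168 against 882, 1174 and 1220.0 (-2.92 ± 0.32). Manba, the β-mannosidase, had no read without tamoxifen and 45 with it, so that its level was at least 2.70-fold lower when 3 reads in the whole group are taken as the limit. Ids was the gene that was higher without tamoxifen (2.34 ± 0.42). The genes with the smallest differences called were Neu1 (-0.73 ± 0.25) and Arsb (-0.82 ± 0.30). Under total-count scaling 21 were lower and 4 higher. The microglial markers summed to 11723 to 13249 CPM without tamoxifen, and their part in these differences was not tested.

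CX3CR1Cre mice gave a much weaker and less uniform pattern. The 41 genes took 0.600% ± 0.0249 (SD, n = 3) of counts in pull-down and 0.455% ± 0.0266 in input. Against input, 18 were higher and 8 lower, with 18.1% and 16.8% of all genes, and the median of the 41 was 0.59 beside -0.019 over all genes. Against IgG1, 24 were higher and 4 lower, with 20.5% and 18.3% of all genes; total-count scaling gave 18 and 8. Without the library that stood apart, the counts were 18 and 7 against input and 22 and 5 against IgG1.

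Pld4 again led, with 42.9, 64.5 and 82.1 CPM in the CX3CR1Cre pull-downs and 5.69, 10.8 and 10.8 in their inputs (2.76 ± 0.30). Psap came next at 410.3, 484 and 503 against 118, 121 and 166 CPM (1.79 ± 0.22), although IgG1 held 333, 378 and 389.8 and the difference from it was not called (0.34 ± 0.21). Cd68 had 34.1, 77.6 and 85.2 CPM in pull-down and 17.6, 17.8 and 20.9 in input (1.78 ± 0.28). For Laptm5, where the library that stood apart was the lowest, the values were 186, 489 and 574 and 102, 114 and 183 CPM (1.64 ± 0.35, and 2.00 without that library). Genes lower than input included Ids (-2.43 ± 0.25), Lamp2 (-1.98 ± 0.43), Arsb (-1.70 ± 0.23), Laptm4a (-1.39 ± 0.20) and Npc1 (-1.15 ± 0.34). The other 3 were Lipa (-1.08 ± 0.32), Galc (-0.99 ± 0.28) and Tpp1 (-0.98 ± 0.24). Of these, Arsb, Lipa, Npc1 and Tpp1 were higher than input with CX3CR1CreER and tamoxifen. Against IgG1 of CX3CR1Cre mice, Ids and Laptm4a were lower too, but Lipa was higher. Arsb, Galc, Lamp2, Npc1 and Tpp1 were not called against it.

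**Figure D2:**
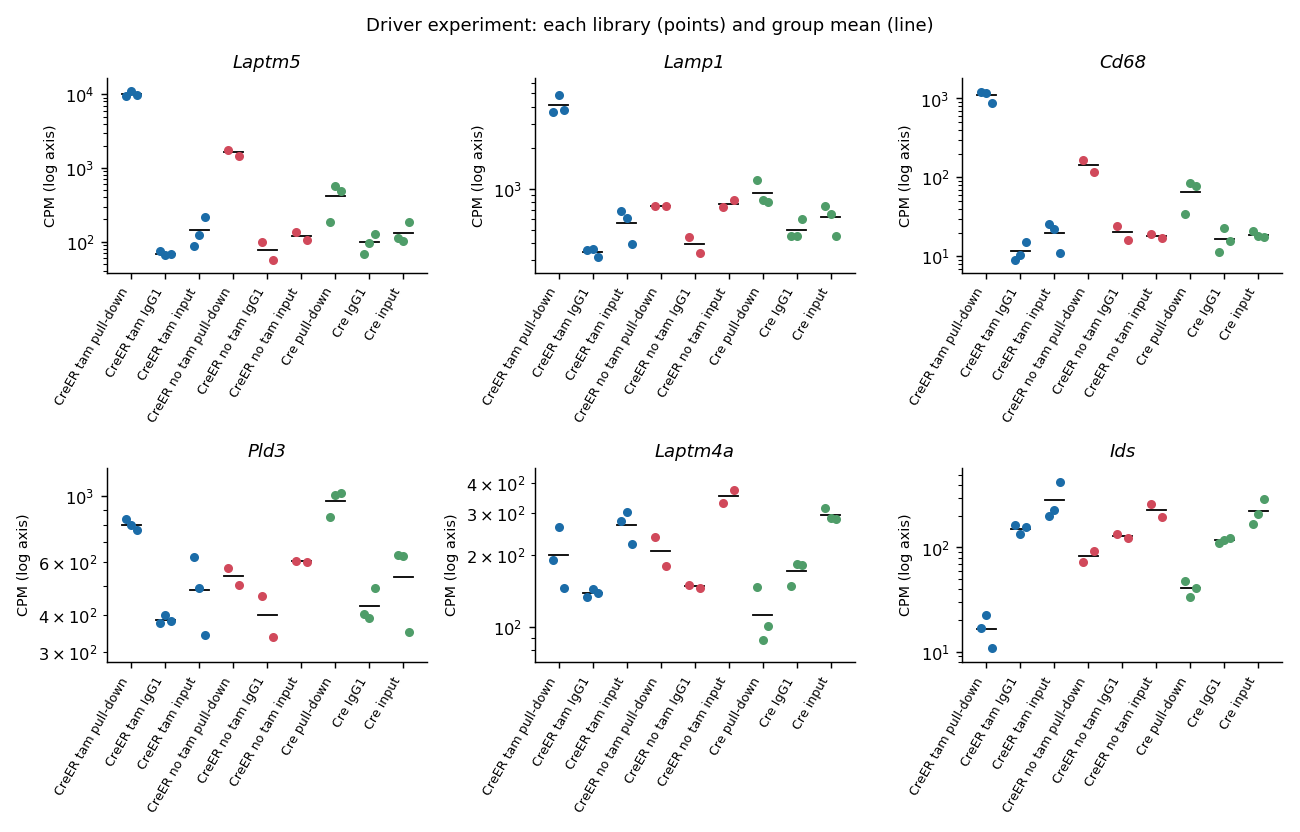
CPM (y axis, log scale) of 6 lysosomal genes in every library of the driver experiment (points) with the mean of each group (line), for pull-down, IgG1 and input of the 3 kinds of mice. Pull-downs with tamoxifen stand above all others for Laptm5, Lamp1 and Cd68, and below all others for Ids.

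Pull-downs of the 2 drivers were then compared with each other. The drivers differed in tamoxifen as well as in the Cre allele, and these cannot be told apart. With CX3CR1Cre, 33 of the 41 genes were lower and 3 higher, where 25.6% of all genes were lower and 30.2% higher, and the counts were the same without the library that stood apart. Laptm5 differed most, by -4.60 ± 0.39, followed by Pld4 (-4.34 ± 0.26) and Man2b1 (-4.34 ± 0.24). Grn (-3.99 ± 0.25), Hexa (-3.26 ± 0.23), Lgmn (-3.09 ± 0.22), Npc2 (-2.78 ± 0.19) and Tfeb (-2.47 ± 0.31) were also lower. The genes that were higher with CX3CR1Cre were Ids (1.34 ± 0.33), Smpd1 (0.86 ± 0.19) and the α-glucosidase Gaa (0.51 ± 0.17).

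Pld3 and Mcoln1 did not follow. Pld3 had 852, 1011 and 1025 CPM with CX3CR1Cre and 772, 798 and 839.9 with CX3CR1CreER and tamoxifen (log2 difference 0.26, 95% interval -0.14 to 0.66, not called). Mcoln1 had 128, 132 and 176 and 111, 119 and 155 CPM (0.18, interval -0.26 to 0.61, not called), and the sialidase Neu1 differed by 0.061 ± 0.17. An interaction term, which asks whether pull-down over input differed between the drivers, was lower with CX3CR1Cre for 32 genes and higher for 3, where 19.7% and 23.9% of all genes were called. It was largest for Laptm5 (-4.48 ± 0.51), Man2b1 (-4.24 ± 0.34) and Gusb (-4.19 ± 0.43), and positive for Ids (1.70 ± 0.39), Gaa (0.80 ± 0.24) and Smpd1 (0.79 ± 0.26). Without the library that stood apart 29 were lower and 3 higher. Neuronal markers summed to 4828 to 6356 CPM in CX3CR1Cre pull-downs and 1182 to 1521 in CX3CR1CreER pull-downs with tamoxifen, and their part in these differences was not tested.

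The same 41 genes were compared with IgG1 in the other experiments. In the digest experiment pull-down exceeded IgG1 for 33 of the 41 genes and lay below it for 5, where 26.7% and 47.8% of all genes were called. With the compared groups fitted alone, 36 of the 41 were called there, 35 of them higher. Of 10838 genes tested in that fit, 7913 were called, 3804 of them higher. The median of all tested genes was then -0.085, beside -0.47 in the joint fit. In PBS mice 33 were higher and 1 lower, with 33.0% and 32.0% of all genes. Across the driver experiment with tamoxifen, the digest experiment and the PBS mice, which share no library, 30 genes were higher than IgG1 in all 3 and Ids was lower in all 3. The share of all tested genes called alike in all 3 was not counted. Laptm5 had 10507, 11992 and 12133 CPM against 103, 107, 127 and 129.9 in the digest experiment (6.63 ± 0.14) and 4935, 5394 and 5544 against 80.9, 85.1 and 104 in PBS mice (5.87 ± 0.24). Cd68 differed by 6.20 ± 0.17 and 5.24 ± 0.25, Pld4 by 5.81 ± 0.19 and 4.92 ± 0.22, and Grn by 4.94 ± 0.16 and 4.75 ± 0.23. Ids had 9.10, 15.6 and 16.6 CPM in pull-down against 50.7, 78.2, 82.8 and 110.3 in IgG1 (-2.54 ± 0.23), and -2.02 ± 0.24 in PBS mice.

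Some genes did not behave alike across these experiments. In the digest experiment, Gla (-0.73 ± 0.30), Gaa (-0.64 ± 0.15), Mcoln1 (-0.45 ± 0.17) and Smpd1 (-0.44 ± 0.14) were lower than in IgG1. Smpd1 turned to 0.0017 when the compared groups were fitted alone. As 35 of the 36 genes called in that fit were higher, most of these lower calls depended on the joint fit. In PBS mice none of these 4 was called. In the driver experiment with tamoxifen, Mcoln1 and Smpd1 were called higher than IgG1, and Gaa and Gla were not called. Mcoln1 had 54.7, 64.5 and 71.5 CPM in pull-down and 69.3, 71.4, 86.4 and 115 in IgG1 of the digest experiment, and 55.0, 64.4 and 75.2 and 45.8, 51.5 and 56.0 in PBS mice. Pld3 was close to IgG1 in the digest experiment, at 395, 408 and 411 against 306, 336, 427 and 565 CPM (-0.018 ± 0.14), and slightly higher in PBS mice (0.48 ± 0.19). That last call was lost, with values near 0, under the size factors of DESeq2, which moved the median of all tested genes there by -0.52. Laptm4a was higher in both (0.79 ± 0.15 and 0.69 ± 0.20).

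Sorted cells and pull-down differed in many of these genes, in both directions, as they did in many of all tested genes. The 41 took 3.29% ± 0.147 (SD, n = 3) of counts in pull-down of the digest experiment and 2.64% ± 0.0201 (n = 4) in cells sorted after the digest. Without the 5 genes of the set with the most counts, the order turned, with 1.08% ± 0.00872 in pull-down and 1.16% ± 0.0401 in sorted cells. In PBS mice the shares were 2.38% and 2.26%, and without the 5 largest genes 1.02% and 1.07%. After the digest, 15 genes were higher in sorted cells than in pull-down and 12 lower, where 31.6% and 41.1% of all genes were called. Without the digest, 13 were higher and 12 lower, with 31.9% and 40.9% of all genes; total-count scaling gave 18 and 11. In PBS mice 15 were higher and 13 lower, with 33.2% and 38.7% of all genes. Without a filter on low counts, 31 were called in PBS mice, only 10 of them higher. Of 17983 genes tested there, 9293 were called, 2995 of them higher, and their median was -0.48 beside -0.15 with the filter. With the filter kept, 12 genes were higher after the digest and in PBS mice alike (of 15 in each) and 10 were lower (of 12 and of 13). In those fits 0 genes were called in opposite directions. How often all tested genes were called alike in both was not counted.

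Lamp2 stood furthest apart. It had 8.09, 8.30 and 8.34 CPM in the 3 pull-downs, 122, 149, 167 and 209 in cells sorted after the digest and 127, 159, 176 and 177 in cells sorted without it, a log2 difference of 4.29 ± 0.23 and 4.26 ± 0.23. In PBS mice it had 7.23, 12.4 and 14.5 CPM in pull-down and 235, 254 and 259 in sorted cells (4.46 ± 0.22). Its relative Lamp1 went the other way, with 3070.1, 3265 and 3346 CPM in pull-down and 1016, 1067, 1134 and 1236 after sorting with digest (-1.54 ± 0.13), and 1899.9, 2011 and 2108 against 1362, 1367 and 1368 in PBS mice (-0.56 ± 0.17). Lamp1 and Lamp2 thus differed between preparations in opposite directions in both experiments. Ids, at 9.10, 15.6 and 16.6 CPM in pull-down, reached 58.2, 66.4, 67.5 and 69.4 in sorted cells (2.22 ± 0.24) and differed by 1.77 ± 0.24 without the digest and by 1.83 ± 0.25 in PBS mice. Laptm4a had 190.3, 234 and 237 CPM in pull-down and 464, 496, 635 and 639 in sorted cells (1.34 ± 0.15), where Laptm5 had 10507, 11992 and 12133 and 5645, 5827, 5874 and 6527 (-0.95 ± 0.12). In PBS mice these 2 relatives differed by 1.70 ± 0.19 and -0.41 ± 0.19. Tpp1 was higher in sorted cells by 1.52 ± 0.16, 1.38 ± 0.16 and 2.06 ± 0.22 in the 3 comparisons.

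All 3 lipid-binding cofactors were lower in sorted cells. Npc2 had 2273, 2278 and 2298 CPM in pull-down and 674, 744, 765 and 821 in cells sorted after the digest (-1.60 ± 0.12), and 2031, 2060.3 and 2350.5 against 537, 576 and 585 in PBS mice (-1.92 ± 0.17). Gm2a, the activator of GM2 ganglioside breakdown, differed by -1.98 ± 0.15, -1.68 ± 0.15 and -2.14 ± 0.17. Psap had 1877, 1972 and 2061 against 824, 945, 1102 and 1199 CPM (-0.95 ± 0.14) and 1706, 1796 and 2043 against 555, 808 and 841 (-1.33 ± 0.25). Gaa (-1.04 ± 0.16 and -1.69 ± 0.17), Smpd1 (-1.13 ± 0.15 and -1.35 ± 0.19) and Pld3 (-0.73 ± 0.15 and -1.14 ± 0.20) were lower too, while Pld4 was higher (0.75 ± 0.14 and 0.61 ± 0.17). Grn, Lgmn and Ctns were not called in either experiment. Grn had 1974, 2008 and 2419.6 CPM in pull-down and 1743, 1848 and 2111 in sorted cells (-0.17, interval -0.54 to 0.20), Lgmn 3084, 3295 and 3303 and 3049, 3292 and 3552 (0.031, interval -0.33 to 0.39), and Ctns 38.2, 48.0 and 54.1 and 37.8, 48.6 and 52.6. Hexa was lower in sorted cells of PBS mice (-0.72 ± 0.16) and not called in the digest experiment (-0.21 ± 0.13).

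**Figure D3:**
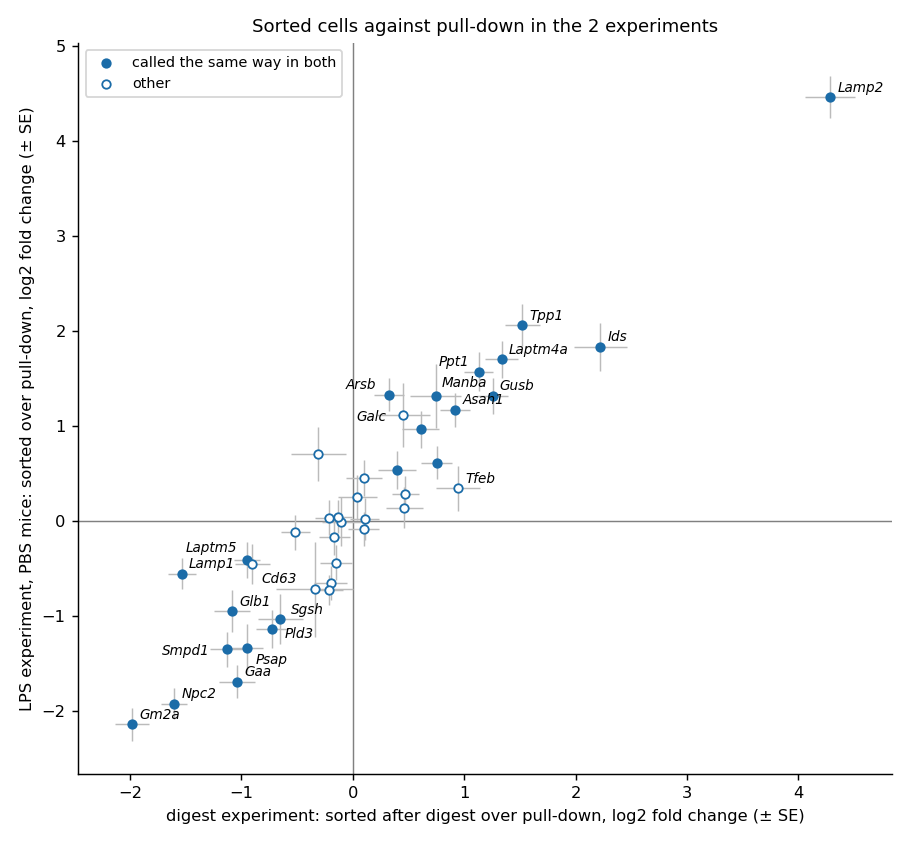
Log2 fold change of sorted cells over pull-down (± SE) for the 41 lysosomal genes, in the digest experiment (x axis) and in PBS mice of the LPS experiment (y axis); filled points were called the same way in both. Lamp2 lies alone at the upper right at 4.29 and 4.46, and Gm2a at the lower left at -1.98 and -2.14.

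Several marker lists moved with preparation. Neuronal markers summed to 974 to 1075 CPM in pull-down and 4.77 to 10.1 in cells sorted after the digest, oligodendrocyte markers to 1591 to 1766 and 111 to 146, and 7 markers of border macrophages to 847 to 928 and 3.47 to 16.1, with F13a1 at 0 in the latter. Immediate early genes, which respond to tissue handling, summed to 593 to 659.7 in pull-down and 15482 to 18052 in those sorted cells. Their part in the differences of the lysosomal genes was not tested. The microglial list summed to 44448 to 49842 CPM in pull-down and 50296 to 54894 after sorting, so that every sorted library was slightly higher. In PBS mice neuronal markers summed to 1201 to 1318 and 60.5 to 116 CPM and border macrophage markers to 700.4 to 866 and 13.8 to 21.0, with Cd163, Lyve1 and Ms4a7 at 0 in sorted cells.

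The collagenase digest was tested in sorted cells. By edgeR's test 0 genes were called between cells sorted with and without it, 2 had an unadjusted p under 0.05, and DESeq2's Wald test called 0; over all genes 0.121% were higher and 0.0173% lower. Lgmn had 3129, 3376, 3542 and 3648 CPM with the digest and 3216, 3364, 3377 and 3397 without it (log2 difference 0.036, interval -0.19 to 0.27).

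A pull-down made from sorted cells of PBS mice was richer in these genes than the sorted cells. The 41 took 3.20% ± 0.130 (SD, n = 3) of its counts against 2.26% ± 0.0522 in sorted cells, and 21 genes were higher and 1 lower, where 16.6% and 15.2% of all genes were called. Under total-count scaling 13 were higher and 2 lower, with 10.5% and 22.9% of all genes. Pld3 led with 411, 547 and 567 CPM against 143, 209.9 and 229.8 (1.40 ± 0.21), followed by Grn at 4215, 4557 and 5155 against 1743, 1848 and 2111 (1.29 ± 0.19) and Smpd1 (1.25 ± 0.20). Cd68 had 1599, 1625 and 1935 against 573, 738 and 929 CPM (1.20 ± 0.19) and Lgmn 6701, 7786 and 7876 against 3049, 3292 and 3552 (1.18 ± 0.19). Hexa (0.47 ± 0.16) and Scarb2 (0.51 ± 0.19) were the smallest differences called. Lamp2 was the gene that was lower in it, with 128, 143 and 163 CPM against 235, 254 and 259 (-0.81 ± 0.19). Microglial markers summed to 88868 to 94979.8 CPM in this pull-down and 48384 to 49539.7 in sorted cells. Neuronal markers stood at 244 to 418 against 60.5 to 116 CPM and oligodendrocyte markers at 403 to 676 against 151 to 268, and the part of these lists in the differences was not tested.

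After 3 h of LPS many of the 41 genes were lower, and Cd63 was the one gene called higher. In the pull-down from brain, 17 of the 41 genes fell and 1 rose, where 11.0% of all genes fell and 15.5% rose. Total-count scaling gave 24 fallen and 1 risen, with 17.5% of all genes lower and 11.9% higher, and the size factors of DESeq2 gave 23 and 1, with 15.7% and 12.8%. In sorted cells 26 fell and 1 rose, with 17.6% and 17.0% of all genes, and in the pull-down from sorted cells 26 fell and 1 rose, with 12.9% and 12.7%. The median log2 change of the 41 was -0.44 in pull-down, -0.59 in sorted cells and -0.72 in pull-down from sorted cells, beside -0.028, -0.014 and -0.070 over all genes. As a share of counts the 41 genes stood at 1.72% ± 0.124 (SD, n = 4) after LPS against 2.38% ± 0.0206 (n = 3) after PBS in pull-down, and at 1.62% ± 0.151 against 2.26% ± 0.0522 in sorted cells. The preparations come from different libraries, but sorting and pull-down used the same animals per the design text. In all 3, 14 genes fell, of the 17 in pull-down and of the 26 in each of the others. How many of all tested genes fell in all 3 was not counted.

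The sulfatase Sgsh, which removes sulfate from heparan sulfate, fell most. In pull-down it had 58.4, 60.4 and 62.7 CPM after PBS and 9.5, 11.8, 11.9 and 16.8 after LPS (-2.20 ± 0.24), and IgG1 of LPS mice held 3.70, 4.01, 4.25 and 8.18. In sorted cells it went from 26.3, 26.6 and 36.4 to 5.26, 7.82, 10.00 and 10.7 CPM (-1.81 ± 0.36), and in pull-down from sorted cells from 54.7, 55.5 and 75.9 to 0, 5.14, 17.9 and 20.4 (-2.09 ± 0.36). The groups did not overlap in any preparation, though the last rests on 22 reads in 4 libraries. Naglu, which acts on the same polymer, changed by a log2 of -1.23, -1.39 and -1.56 in the 3 preparations, with 160.5, 161 and 181 CPM after PBS and 50.2, 60.5, 79.7 and 90.7 after LPS in pull-down. The sulfatases Arsa (-0.92 ± 0.19, -1.15 ± 0.21 and -0.71 ± 0.23) and Arsb (-0.83 ± 0.17, -0.90 ± 0.16 and -1.01 ± 0.18) fell as well, and Galns was called in sorted cells (-0.76 ± 0.29) and in neither pull-down.

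Of the membrane proteins, Ctns, Scarb2 and Npc1 fell in all 3 preparations. Ctns had 38.2, 48.0 and 54.1 CPM after PBS and 12.9, 21.7, 22.7 and 23.7 after LPS in pull-down (-1.19 ± 0.24), and 37.8, 48.6 and 52.6 and 18.3, 19.0, 21.5 and 36.8 in sorted cells (-0.91 ± 0.29). Scarb2 changed by -0.85 ± 0.17, -0.95 ± 0.18 and -1.20 ± 0.19. Of 5 lipases and lipid hydrolases, 3 fell in pull-down and 4 in sorted cells. Lipa, the acid lipase that frees cholesterol from its esters, had 63.7, 71.1 and 73.8 CPM after PBS and 18.3, 24.2, 25.9 and 28.3 after LPS in pull-down (-1.50 ± 0.20), with -1.34 ± 0.20 in sorted cells. Asah1 (-0.76 ± 0.17 and -0.45 ± 0.17) and Pla2g15 (-0.82 ± 0.16 and -0.76 ± 0.17) were lower in both. Hexa had 1906, 1928 and 1986 against 1349.6, 1413, 1544 and 1665 CPM in pull-down (-0.38 ± 0.15) and 1131, 1181 and 1210.1 against 619, 655, 709 and 776 in sorted cells (-0.77 ± 0.15). Gusb (-0.53 ± 0.18, -0.43 ± 0.18 and -0.94 ± 0.20), Fuca1 and Gm2a (-0.45 ± 0.15, -0.54 ± 0.17 and -0.59 ± 0.20) complete the 14. Psap fell in pull-down, from 1706, 1796 and 2043 to 1013, 1022, 1161 and 1536 CPM (-0.65 ± 0.23), and was not called in sorted cells, where 1 of 4 LPS libraries was high (368, 398, 419.9 and 784 CPM after LPS, 555, 808 and 841 after PBS).

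**Figure D4:**
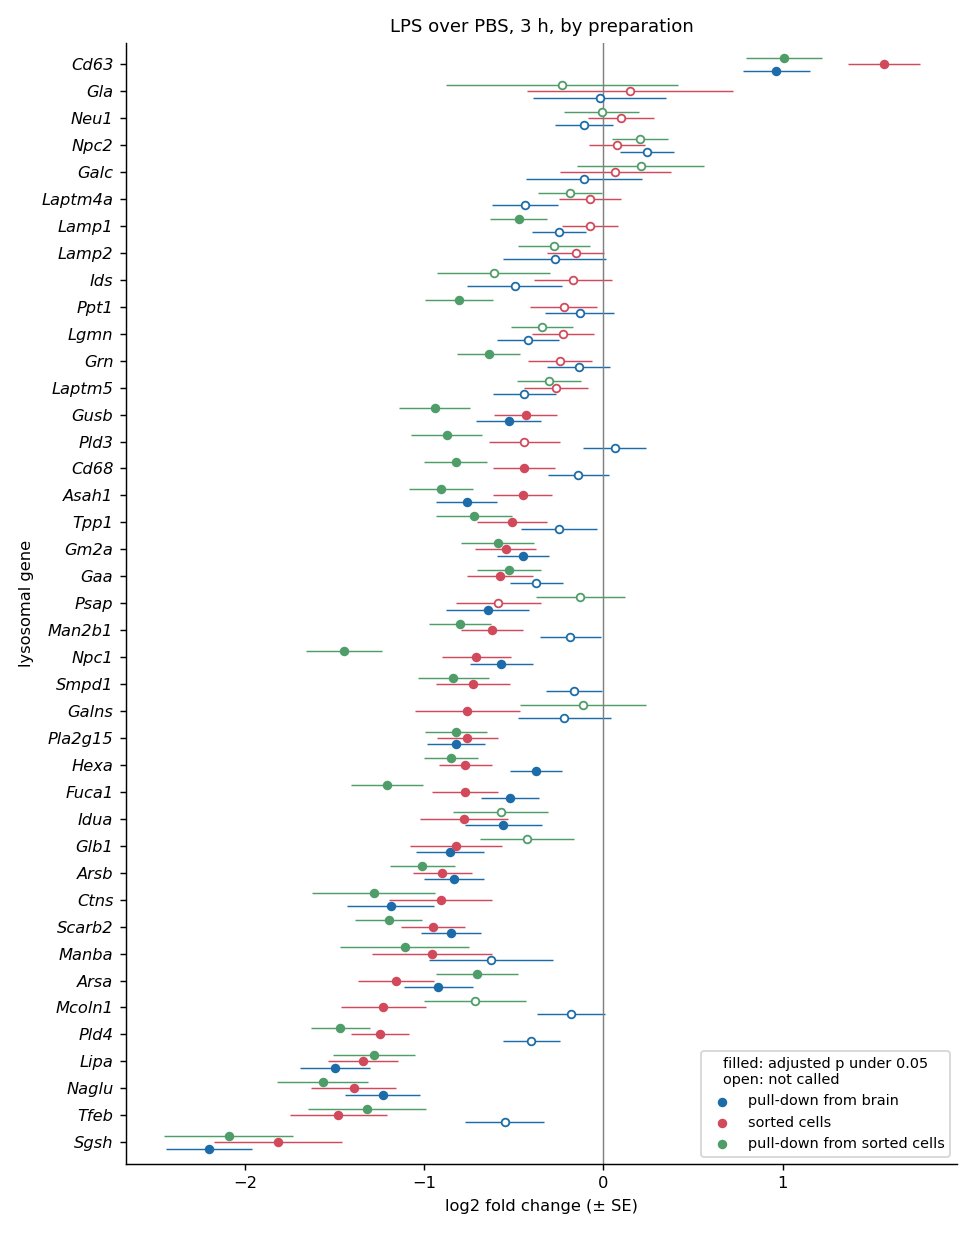
Log2 fold change of LPS over PBS (x axis, ± SE) for the 41 lysosomal genes (y axis, ordered by sorted cells) in pull-down, sorted cells and pull-down from sorted cells, filled where called. Cd63 stands alone on the right at 0.97 to 1.56, and Sgsh is lowest at -1.81 to -2.20.

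Cd63 had 147, 148 and 187 CPM after PBS and 268, 298, 320.4 and 366 after LPS in pull-down (0.97 ± 0.19), 71.5, 126 and 150.3 and 269.8, 298, 403 and 410.0 in sorted cells (1.56 ± 0.20) and 169, 178 and 189 and 240.0, 349.8, 397 and 399 in pull-down from sorted cells (1.01 ± 0.21). Every LPS library of a preparation lay above every PBS library. In contrast 9 genes were called in none of the 3 comparisons, namely Laptm5, Laptm4a, Lamp2, Lgmn, Npc2, Neu1, Ids, Galc and Gla. Laptm5 had 4935, 5394 and 5544 CPM after PBS and 3595, 3834, 3962 and 4207 after LPS in pull-down (log2 -0.44, interval -0.79 to -0.095) and 3866, 3966 and 4124 and 3203, 3228, 3269 and 3579 in sorted cells (interval -0.61 to 0.084). Every LPS library of these 2 preparations lay below every PBS library for Laptm5, although the test did not call it. For Lgmn the values were 3084, 3295 and 3303 and 2069.8, 2348, 2390.2 and 2847 CPM in pull-down (log2 -0.42, interval -0.76 to -0.083). Npc2 had 2031, 2060.3 and 2350.5 and 2153, 2339, 2838 and 2841 CPM (interval -0.047 to 0.54), Lamp2 235, 254 and 259 and 209, 212, 236 and 237 in sorted cells (interval -0.46 to 0.16) and Laptm4a 385, 451 and 454 and 399, 402, 411 and 424 there (interval -0.42 to 0.27). Lamp1 was called in pull-down from sorted cells only (-0.47 ± 0.16), and its values in pull-down were 1899.9, 2011 and 2108 and 1446, 1625, 1822 and 1864 CPM.

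**Figure D5:**
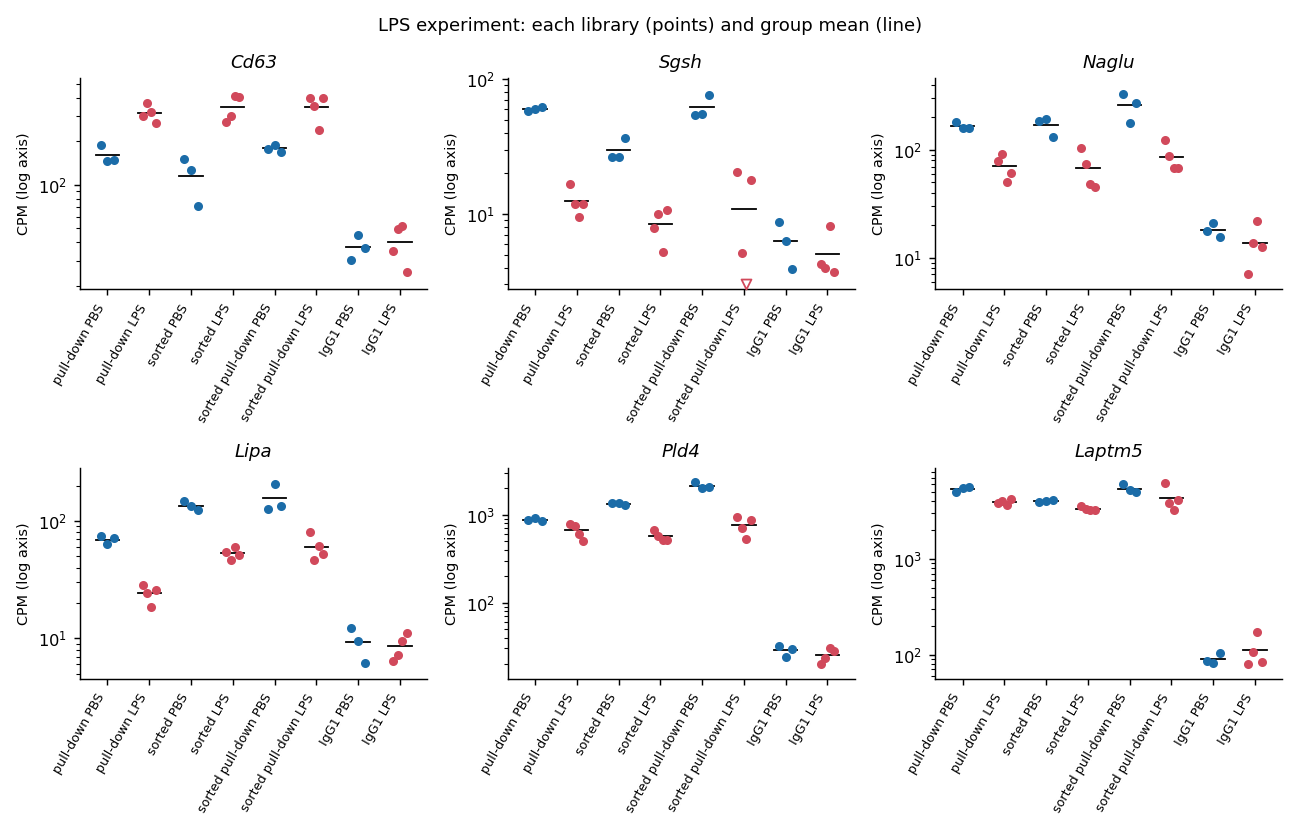
CPM (y axis, log scale) of 6 lysosomal genes in every library of the LPS experiment (points) with the group mean (line), PBS in blue and LPS in red, by preparation; an open triangle at the lower edge marks a library with no read. Cd63 is higher after LPS in 3 preparations, Sgsh, Naglu and Lipa are lower, and IgG1 overlaps between treatments.

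A group of genes fell in sorted cells but was not called in the pull-down from brain. Pld4 had 1291, 1360.5 and 1376 CPM after PBS and 509.9, 514, 575 and 671 after LPS in sorted cells (-1.25 ± 0.16), 2009.6, 2059 and 2349.8 and 523, 705, 877 and 934 in pull-down from sorted cells (-1.47 ± 0.17) and 844, 869.9 and 918 and 509, 608, 751 and 781 in pull-down (-0.40 ± 0.16). The groups did not overlap in any of the 3 for Pld4, pull-down included. Mcoln1 went from 45.7, 82.5 and 84.1 to 27.3, 28.3, 30.5 and 37.1 CPM in sorted cells (-1.23 ± 0.24) and had 55.0, 64.4 and 75.2 and 47.5, 58.4, 59.0 and 62.1 in pull-down (-0.18 ± 0.19). Tfeb fell from 58.7, 65.9 and 83.1 to 17.9, 23.5, 25.0 and 32.1 CPM in sorted cells (-1.48 ± 0.27), and in pull-down it had 53.2, 54.3 and 54.8 and 30.3, 30.3, 37.3 and 49.7 (-0.55 ± 0.22). Grn was called in pull-down from sorted cells only (-0.64 ± 0.18), as was Pld3 (-0.87 ± 0.20), and Cd68 was called in both kinds of sorted material (-0.44 ± 0.17 and -0.82 ± 0.18).

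The interaction term between sorted cells and pull-down, which tests such differences, was called for 2 of the 41 genes, both with the greater fall in sorted cells, where 2.41% of all genes were called lower and 0.795% higher. These were Mcoln1 (-1.05 ± 0.31, adjusted p = 0.0387) and Pld4 (-0.84 ± 0.23, adjusted p = 0.0248). Leaving out 1 library at a time left 0 to 2 genes called, and only without the fourth LPS pull-down or the first LPS sorted library were 2 still called. For Tfeb the term was -0.93 ± 0.35 and was not called. The titles number these libraries 1 to 7 across preparations, and with that number as a block both genes were still called and Cd63 joined them with a greater rise in sorted cells (0.68 ± 0.20, edgeR adjusted p = 0.0178).

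The IgG1 libraries give the background of these changes. Between LPS and PBS, 0 of the 41 genes were called by edgeR's test, 2 had an unadjusted p under 0.05, and DESeq2's Wald test called 0, where 1.00% and 0.149% of all genes were called. The term that sets the LPS change in pull-down against that in IgG1 was called for 4 genes, all with a greater fall in pull-down, where 2.98% and 5.60% of all genes were called. They were Sgsh (-1.75 ± 0.53), Lipa (-1.35 ± 0.40), Scarb2 (-1.0 ± 0.26) and Arsa (-0.90 ± 0.30), and 2 genes were called without the third PBS library of IgG1. For Cd63 the term was 0.87 ± 0.31 and was not called, but it was called (0.83 ± 0.26) beside the other 4 with the library number as a block. The summed microglial markers overlapped in pull-down, at 38265 to 49274 CPM after LPS and 42830.4 to 48075 after PBS, with 7 of 12 called lower and 1 higher. In sorted cells the sum was 39104 to 41324 after LPS against 48384 to 49539.7, again with 7 called lower and 1 higher. Their part in the changes of the lysosomal genes was not tested.

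Of the 14 genes that fell in all 3 preparations, 12 had a promoter window, and 3 of these, Sgsh, Naglu and Arsa, held the E-box core printed above. Among the other genes 26 had a window and 6 held it, among them Lamp1 with 4 cores, which was called in 1 preparation, and Mcoln1. A core in this window is a description of the sequence and no evidence that a factor bound there.

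Other genes of the organelle served as a wider view. Of 18 further lysosomal enzymes and transporters, 12 were higher and 2 lower in pull-down than in input with CX3CR1CreER and tamoxifen (median 1.60). Among the higher was the nuclease Dnase2a (4.79 ± 0.33). Of all genes, 28.7% were higher and 35.5% lower there, with a median of -0.28. Of 15 tested subunits of the proton pump that acidifies lysosomes and synaptic vesicles, 4 were higher and 7 lower. Their median of -0.30 lay near that of all genes. With CX3CR1Cre compared with CX3CR1CreER and tamoxifen, 12 pump subunits were higher and 1 lower in pull-down, where the 18 enzymes and transporters had 0 higher and 13 lower. Of all genes, 30.2% were higher and 25.6% lower in that comparison. After LPS, 3 pump subunits rose and 2 fell in pull-down, where 15.5% of all genes rose and 11.0% fell. In sorted cells 3 rose and 1 fell, where 17.0% of all genes rose and 17.6% fell. Atp6v0a1 rose by 2.01 ± 0.22 in pull-down and 2.59 ± 0.24 in sorted cells, and Atp6v0c by 0.86 ± 0.16 and 1.32 ± 0.19. The enzymes and transporters had 0 higher and 4 lower in sorted cells, where 17.6% of all genes were lower, among them the sialic acid transporter Slc17a5 (-2.13 ± 0.34) and Dnase2a (-1.14 ± 0.19). Of 7 genes that deliver or mature lysosomal enzymes, 4 were higher and 2 lower in the tamoxifen pull-down than in input. Of 8 genes of the nutrient-sensing scaffold 5 were higher and 2 lower, with 2.02 ± 0.21 for Lamtor4. The shares of all genes were 28.7% and 35.5%, and both lists are small. Of the relatives of Tfeb, only Tfe3 was tested in that experiment (2.74 ± 0.20).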

How the data were processed

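The authors deposited raw read counts per gene over exons, 1 table per experiment, with every library in a column of its own. The submitters' processing notes name HOMER, HISAT (version 0.1.5), bcl2fastq and build mm9, and give no roles. Annotation, strand setting and handling of duplicates are not given in the sources used here. The antibody amounts differed per the labels' protocols, at 125 µg for anti-HA and 1 µg for IgG1.

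All libraries of an experiment entered 1 fit and share a spread (R 4.3.3, edgeR 4.0.16): filterByExpr with a minimum count of 10, TMM scaling, quasi-likelihood F test with robust dispersions, Benjamini-Hochberg adjustment over the 11868 (driver), 11529 (digest) or 11444 (LPS) genes tested, and a call at an adjusted p under 0.05. Values after a log2 difference are standard errors, intervals are 95% and not adjusted for the number of genes, and CPM are counts divided by the TMM-scaled library size and multiplied by 1e6. No gene length was used, so levels are not compared between genes. A group without reads was set to a floor of 3 reads, and intervals or floors from reads cover counting error only. The fit was also run on simulated counts with an equal spread for all genes, a simpler setting than these data, and no result here rests on it. Alternatives were the size factors and Wald test of DESeq2 (version 1.42.0), total-count scaling, no filter, the compared groups alone, a replicate block and leaving out each library in turn.

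The 41 genes, the other gene lists and the tests were chosen with earlier results of these data known. Values per library are given for 16 genes set by role and for Ids, Sgsh, Naglu and Lipa, which the next rule names. In each comparison, log2 differences are given for the called genes that reach a mean of 10 CPM in either group, taking 3 from each end of the ranking by size. Promoter sequences are from RefSeq, build GRCm38.p6.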

Additional observations from a re-analysis of the deposited data

Results flagged for a closer look

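In groups of 4 libraries, 5 of 112 checks of the 16 genes set by role found a library far from the others, and chance gives about 1 in 20. Among LPS sorted cells the first library was the highest for Psap (784 CPM, the others 368 to 420), Lgmn (3272 CPM, the others 2659 to 2699) and Pld3 (166 CPM, the others 135 to 139). Among cells sorted after the digest the third was the lowest for Grn (2392 CPM, the others 2753 to 2819). Among IgG1 libraries of LPS mice the fourth was the lowest for Mcoln1 (35.5 CPM, the others 49.1 to 51.8).

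The pull-down over input differed between CX3CR1Cre and CX3CR1CreER with tamoxifen by the interaction test for 13 of these 16 genes, each lower with CX3CR1Cre. The log2 differences were -4.48 for Laptm5, -4.05 for Grn, -4.05 for Pld4, -4.04 for Cd68, -3.52 for Hexa, -2.98 for Lgmn, -2.93 for Npc2, -2.61 for Tfeb, -2.52 for Ctns, -2.29 for Lamp1, -2.18 for Cd63, -0.96 for Laptm4a and -0.74 for Psap. The LPS change differed between sorted cells and pull-down for Mcoln1 (-1.05) and Pld4 (-0.84).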

How the results depend on the processing

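Of 494 called pairs of gene and comparison, 394 kept their direction and their side of the threshold under all alternatives run, and 343 of 6377 single tests lost the call. The direction turned in 5 tests, all near 0. These were Laptm4a against IgG1 in CX3CR1CreER mice with tamoxifen under total-count scaling (-0.027), Smpd1 against IgG1 in the digest experiment with the compared groups alone (0.0017), Pld3 against IgG1 in PBS mice with the size factors of DESeq2 (-0.044) and its Wald test (-0.0455), and Npc1 in sorted cells against pull-down of PBS mice without a filter (-0.044). The cause was not tested. The number of genes called stayed within 1.5 times in 19 of 21 comparisons. That rule does not look at direction. Without a filter, sorted cells against pull-down of PBS mice gave 31 genes called but only 10 higher, where the main fit gave 15 higher. The interaction of LPS between sorted cells and pull-down fell from 2 genes to 1 under DESeq2 size factors, total-count scaling and the Wald test, and to 0 to 2 with a library left out. The interaction between pull-down and IgG1 gave 2 to 5 genes with a library left out. With the replicate number as a block, 36 genes were called for pull-down against input with tamoxifen and 24 for LPS in sorted cells, and no count moved by over 1.5 times. With the library number 1 to 7 of the LPS titles as a block, the interaction between sorted cells and pull-down called 3 genes and that between pull-down and IgG1 called 5. Sorting and pull-down used the same animals, but the labels do not say that a number marks the animal. Within PBS mice each pull-down deviated most like the same-numbered IgG1 library, and each sorted library most like the same-numbered pull-down (correlations 0.023 to 0.14). Across LPS and PBS the numbers stand for different mice. There the LPS pull-downs of replicates 1 to 3 still matched the PBS pull-down of their own replicate number best (0.021 to 0.090). In sorted cells none did, and in IgG1 and the pull-down from sorted cells some did. Such a match therefore cannot decide whether a number marks an animal. Total-count scaling moved the share of all called genes that were higher by over 10 points in 9 comparisons, most for CX3CR1Cre pull-down against input (by -23.7 points). Depth limits Manba, Gla and Sgsh, which had few reads in some groups.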
